A study of Homo sapiens with 4 samples.

Results

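HCEC 1CT cells with APC knocked down were compared with cells carrying a scrambled shRNA 7 days after transduction. The line comes from normal human colon epithelium and was made immortal by adding TERT and CDK4. The comparison rests on 2 of the 4 single-cell RNA-seq libraries of the study, 1 transduced with a scrambled shRNA (shScr) and 1 with an shRNA against APC (shAPC); the others were made at day 3. Both cultures were selected with puromycin and grown in low serum with EGF, hydrocortisone, insulin, transferrin and selenite. A barcode counted as a cell with at least 200 genes, at least 500 UMIs (distinct molecules) and under 5% of UMIs from mitochondrial genes. These limits kept 4078 cells, 2600 of shScr and 1478 of shAPC, out of 5982 in all libraries.

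The model has limits that bear on every value. Each group is 1 culture of 1 line with 1 shRNA, and each gave 1 library, so there is no replicate check and no test. All intervals are 95% intervals of counting error. The labels call the virus retroviral and the kit v2, whereas the paper's methods describe lentivirus and V3. The paper's supplement gives v2 for the kit. The file headers name Cell Ranger 3.0.2 for shScr and 3.0.0 for shAPC, so the software version and the shRNA cannot be told apart. The kept cells held 31230868 UMIs in shScr and 28451455 in shAPC, but the median cell held 1330 UMIs in shScr and 21029.5 in shAPC. The mitochondrial limit removed 28.8% of shScr barcodes and 51.3% of shAPC barcodes. Cells of at least 2000 UMIs, 1198 and 1087 of them, carried 96.6% and 98.8% of these UMIs, and the sums therefore reflect deep cells in both libraries. The libraries shared 4 kept barcodes.

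APC is the scaffold of the destruction complex, in which CK1 and GSK3 phosphorylate β-catenin and mark it for degradation. When APC is lost, β-catenin accumulates, binds TCF/LEF factors and switches on Wnt targets, several of which, such as AXIN2, feed back on the pathway. In the colon this loss is the usual first step of adenoma formation.

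The colonic label was not borne out by the usual markers. None of 18 colonic epithelial markers (EPCAM, CDH1, KRT20, CDX2 and the like) reached 20 CPM (UMIs of a gene scaled to a common library total), 10 of them had no UMI in either library, and together they made up 17.2 CPM in shScr and 23.1 in shAPC. In a separate list of simple keratins and junction genes 4 of 23 were measured. KRT7 was at 69.9 and 67.5 CPM, PKP2 at 19.3 and 27.8, TJP1 at 51.5 and 36.55 and CLDN11 at 182 and 90.3. All 12 fibroblast or mesenchymal markers were measured, with 6349 and 7603 CPM in all. Markers of immune cells summed to 18.3 and 23.1 CPM, of endothelium to 0.833 and 0.527 CPM and of erythroid cells to 0.288 and 0.598 CPM. The cells are therefore called HCEC 1CT cells throughout.

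Most of the transcriptome differed little at day 7. The log2 ratio of shAPC to shScr was taken for 4573 genes of at least 20 CPM in either library and is given relative to their median, which lay at -0.10 before centring. Some genes reached 20 CPM only in the library where they were higher. Counts of listed members on 1 side of the median or past 2-fold partly reflect this limit. Relative ratios had an SD of 0.38 across genes, and 90.7% of genes lay within 1.5-fold. At least 2-fold higher in shAPC were 46 genes (1.01%), and at least 2-fold lower 58 (1.27%). Scaling by edgeR's TMM placed the median of all genes at -0.11, with 36 genes higher and 85 lower, and DESeq2 size factors placed it at -0.14, with 28 and 90. Nothing was subtracted under these scalings, so list counts and medians given for them are relative to 0. Each scaling moved all genes by nearly the same amount, so a list that keeps its side is no check. Beyond 4-fold there were 2 genes above, MT1F and KRTAP1-5, and 4 below, SOD3, SAA1, EFEMP1 and SAA2. Their share varied with level: below 50 CPM 1.08% of genes were higher and 1.26% lower, at 100 to 300 CPM 0.469% and 2.03%, and at 300 to 1000 CPM 2.27% and 0%. Among the 127 genes averaging at least 1000 CPM the SD was 0.21 and 0 passed 2-fold. Counts of cells and RNA per cell cannot be told apart in summed values, so shares of cells are given beside them where they add something.

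**Figure D1:**
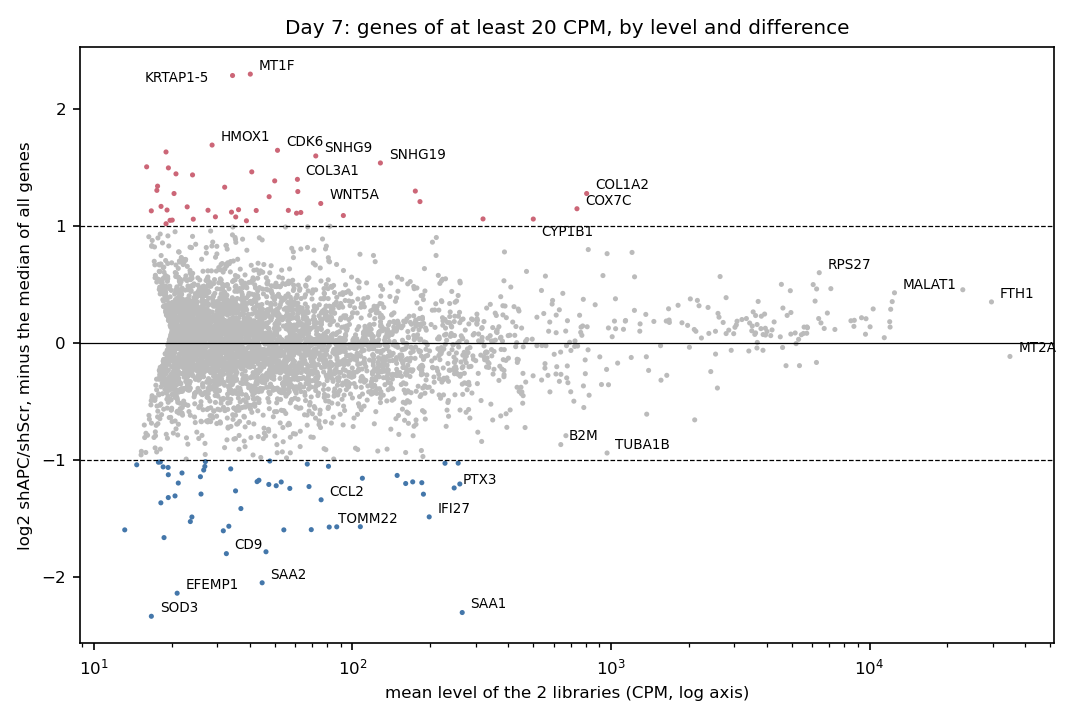
Each point is 1 of the genes measured, with its mean level over the 2 libraries on the x axis (CPM, log scale) and its log2 shAPC/shScr ratio minus the median of all genes on the y axis (pseudocount 1 CPM). Red points are the genes at least 2-fold higher in shAPC, blue points those at least 2-fold lower; COL1A2 and COX7C are the most abundant red points, and SAA1 and PTX3 lie among the most abundant blue ones.

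**Figure D2:**
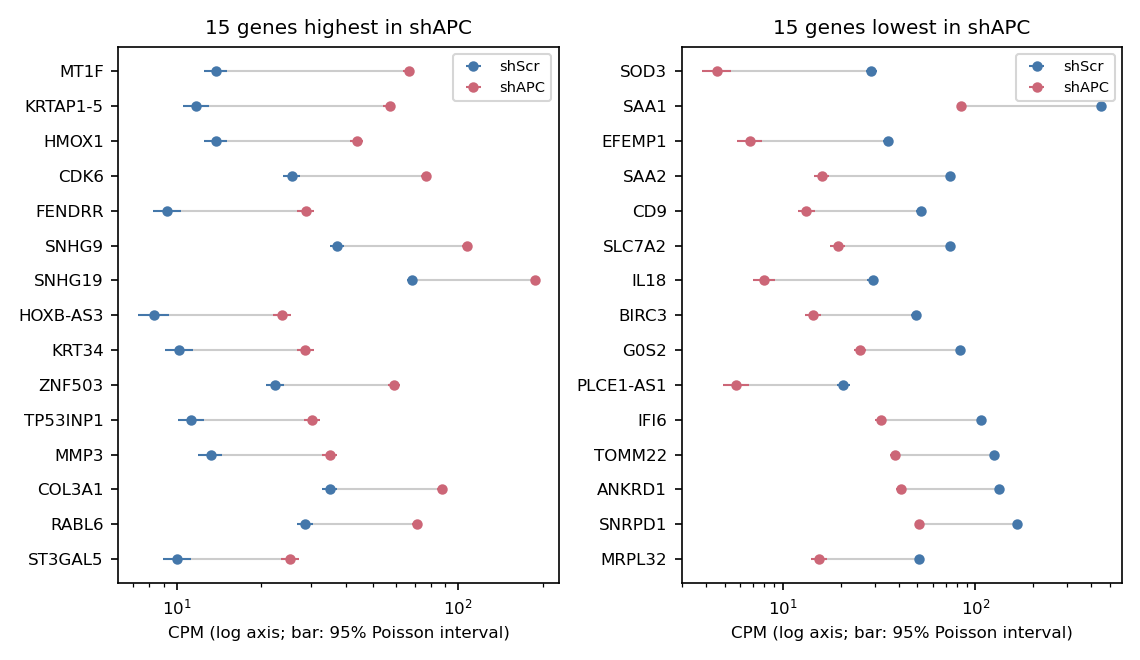
Levels in CPM (log axis) of the top 15 and bottom 15 genes by shAPC/shScr ratio, with 95% Poisson intervals. In every row the intervals of the 2 libraries are apart, from MT1F (13.7 against 66.8 CPM) to SOD3 (28.8 against 4.53 CPM).

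APC itself was lower in the knockdown. It was counted at 597 UMIs (19.1 CPM) in shScr and 188 UMIs (6.61 CPM) in shAPC, a relative log2 ratio of -1.44 (-1.68 to -1.20). Cells with an APC UMI were also fewer, as 17.3% of shScr cells and 6.58% of shAPC cells had one when each cell was thinned to 10000 UMIs (16.4% and 11.1% unthinned). Thinning left 919 shScr and 927 shAPC cells, and the line holds no cell type that should lack a gene and so gives no background share. The gene lies at chr5:112707518-112846239 on GRCh38 (GENCODE 44).

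Genes of the pathway's negative feedback loop differed in both directions, and the higher ones were counted at very low levels. AXIN2, a scaffold of the destruction complex and a direct β-catenin target, had 4 UMIs in shScr and 117 in shAPC, a relative log2 ratio of 5.10 (3.71 to 7.00). NKD1, which binds Dishevelled, had 7 and 59 UMIs, 3.31 (2.17 to 4.68), and the membrane-bound Wnt inhibitor APCDD1 3 and 47, 4.199 (2.56 to 6.53). Few cells carried these molecules: AXIN2 was seen in 0.109% of shScr and 4.42% of shAPC cells thinned to 10000 UMIs (0.154% and 6.63% unthinned). The TCF factors TCF7 (34 and 85 UMIs, relative log2 1.55, 0.96 to 2.17) and LEF1 (17 and 34 UMIs, 1.23, 0.35 to 2.16) also gave intervals above 0, as did ZNRF3, a ubiquitin ligase for Frizzled receptors (75 and 100 UMIs, 0.65, 0.20 to 1.10). TNFRSF19 had 11 and 38 UMIs, but its ratio ran from -1.35 to 3.07 over the alternative settings. NKD2 was listed with 0 and 4 UMIs.

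The best-counted members of the feedback list were lower. The list summed to 211.3 CPM in shScr and 144.4 CPM in shAPC, but DKK1 made up most of both sums, so they do not describe the other members. DKK1, the secreted antagonist of LRP5/6 and the most abundant member, was at 200.3 CPM in shScr and 124.2 CPM in shAPC, -0.59 (-0.65 to -0.53), and the BMP pseudoreceptor BAMBI had 191 and 89 UMIs, -0.87 (-1.25 to -0.50). Of 15 listed members of the destruction complex 7 were measured, and APC, AXIN1, AXIN2, GSK3A and GSK3B were not among them. The measured ones had a list median of -0.04, with 0 of 7 past 2-fold (against 1.01% of all genes higher and 1.27% lower). β-Catenin mRNA (CTNNB1) was at 83.4 and 64.0 CPM, -0.29 (-0.38 to -0.20), FBXW11, which recognises phosphorylated β-catenin, was at -0.48 and the kinase CSNK1E at 0.49. Among Wnt ligands and receptors 5 of 33 were measured, and WNT5A, a ligand of the noncanonical branch, stood out at 47.7 and 103.1 CPM, 1.21 (1.12 to 1.30), with a UMI in 34.2% and 56.7% of thinned cells (25.9% and 54.7% unthinned).

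Targets known from intestinal tumours were not higher as a set. Of 17 listed, 11 were measured, with 5 above and 6 below the median of all genes and a list median near 0 (-0.0049). Past 2-fold was 1 of the 11 (against 1.01% of all genes higher and 1.27% lower). This was SOX4, a transcription factor, at 23.3 and 49.2 CPM (1.17, 1.04 to 1.30). MYC was at 54.5 and 46.1 CPM (-0.14, -0.25 to -0.04), CCND1 at 446 and 456 CPM (0.13) and CD44 at 0.33, whereas the HGF receptor MET was at -0.56 and VEGFA at 0.68. SOX4 and WNT5A kept their values in cells of 10000 to 40000 UMIs, where they were at 1.19 and 1.29.

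Interferon-stimulated genes were lower in shAPC, with the gap widest for IFI6 and IFI27. These genes answer type I interferon through a repeated GAAA element in their promoters. Of 16 measured, 12 lay below the median of all genes and 3 were at least 2-fold lower (against 1.27% of all genes), with a list median of -0.34. IFI27 had 297 CPM in shScr and 98.8 CPM in shAPC (-1.50, -1.56 to -1.43), IFI6, a mitochondrial antiapoptotic protein, 106 and 32.3 CPM (-1.62, -1.73 to -1.52), and the ubiquitin-like modifier ISG15 313 and 143 CPM (-1.03, -1.09 to -0.98). All 3 were thus lower by about the same order, and the shares of thinned cells with a UMI followed: 64.1% and 35.6% for IFI27 (51.6% and 41.5% unthinned) and 44.7% and 21.2% for IFI6 (40.5% and 31.2%). IFIT1 and IFIT3, which bind viral RNA, were at -0.80 and -0.66, and IFITM3, which blocks viral entry, at -0.52. TRIM22 and IFI44L lay above the median of all genes, at 0.34 and 0.36.

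The antigen presentation genes went with them at a smaller size. All 11 measured members of the MHC class I list were below the median of all genes, with a list median of -0.30. At least 2-fold lower were 0 of them (against 1.27% of all genes). With TMM 1 was (against 85 of all 4573 genes), and with DESeq2 scaling 2 (against 90). PSMB9 and TAP1 reached 20 CPM only in shScr. B2M, the invariant light chain, was at 846 CPM in shScr and 433 CPM in shAPC (-0.87, -0.90 to -0.84). The chaperone TAPBP was at 71.2 and 36.7 CPM (-0.86) and the immunoproteasome subunit PSMB9 at 21.6 and 10.1 CPM (-1.01).

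The element is shown in promoters of some of the members that hold it, chosen by hand. The interferon-stimulated ones shown have the lowest ratios of their list, and B2M the lowest of the MHC class I members that hold it. Not shown are IFITM3, PLSCR1, SAMD9, EIF2AK2 and IFI44L, which also hold it and lay between -0.52 and 0.36. Sequences are from RefSeq (GRCh38.p14), written 5′ to 3′ on the strand of the gene, and capitals mark matches to GAAA and GAAA with any 2 bases between them, on either strand; in ISG15 and B2M 2 matches overlap.
IFI6, chr1:27672268-27672315, minus strand: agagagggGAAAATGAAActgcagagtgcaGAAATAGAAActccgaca
ISG15, chr1:1013376-1013407, plus strand: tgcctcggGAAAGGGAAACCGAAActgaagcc
IFI27, chr14:94110620-94110658, plus strand: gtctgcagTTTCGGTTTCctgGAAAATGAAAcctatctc
IFIT1, chr10:89392499-89392537, plus strand: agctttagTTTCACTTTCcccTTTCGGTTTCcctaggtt
IFIT3, chr10:89327833-89327892, plus strand: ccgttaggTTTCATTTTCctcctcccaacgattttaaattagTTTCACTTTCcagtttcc
B2M, chr15:44711365-44711396, plus strand: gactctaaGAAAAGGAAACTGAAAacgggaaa

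The element was found in 10 of 12 interferon-stimulated members with a promoter in the table (83.3%) and in 5 of 9 MHC class I members (55.6%), against 3.65% of all 27305 promoters, each from 250 bases before to 50 bases after the start. The 107 measured genes that hold it had a median relative log2 ratio of -0.00088, and 3 of them (2.80%) were at least 2-fold lower, against 1.08% of the 3617 without it. These 3 were IFI6, IFI27 and ISG15, already named above, so this share is no separate measure.

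Chemokines, cytokines and other products of inflammatory signalling were lower together. NF-kB dimers are released when IκB is degraded and drive chemokines, adhesion molecules and their own inhibitors. All 13 measured chemokine and cytokine genes lay below the median of all genes (list median -0.57), 4 of them at least 2-fold (against 1.27% of all genes). CCL20 and CXCL2 reached 20 CPM only in shScr. CCL2, which attracts monocytes, was at 111 and 40.4 CPM (-1.36, -1.46 to -1.27), CCL20, the ligand of CCR6, at 27.1 and 9.21 CPM (-1.46, -1.67 to -1.26), and CXCL5, which draws in neutrophils, at 75.6 and 30.5 CPM (-1.22, -1.33 to -1.10). IL7R, a receptor chain for IL-7 and TSLP, was the fourth, at 72.8 and 28.6 CPM (-1.25). The abundant neutrophil chemokines differed less, with CXCL8 at 285 and 179 CPM (-0.58) and CXCL1 at 364 and 296 CPM (-0.21). CXCL1, CXCL2 and CXCL3 are close copies whose reads may be split.

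At 10000 UMIs 2.39% of shScr and 8.09% of shAPC cells had no UMI of the chemokine and cytokine list, but single members were seen in fewer cells. CCL2 had a UMI in 33.1% of shScr and 13.8% of shAPC cells thinned to 10000 UMIs (28.8% and 17.9% unthinned), and the 10% of cells richest in it held 68.0% of its UMIs in shScr and 87.8% in shAPC. BIRC3, an antiapoptotic ubiquitin ligase and NF-kB target, had a UMI in 25.2% and 8.63% of thinned cells (17.9% and 10.1% unthinned).

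In the NF-kB list 8 of 9 measured members were below the median (list median -0.58) and 2 at least 2-fold lower (against 1.27% of all genes). With TMM or DESeq2 scaling 3 were at least 2-fold lower (against 85 and 90 of all 4573 genes). BIRC3, ICAM1 and NFKB1 reached 20 CPM only in shScr. BIRC3 was at 48.9 and 14.4 CPM (-1.67, -1.83 to -1.51), the adhesion molecule ICAM1 at 37.2 and 16.7 CPM (-1.06, -1.22 to -0.90), SOD2, the mitochondrial superoxide dismutase, at 254 and 121 CPM (-0.98) and the inhibitor NFKBIA at 85.1 and 48.5 CPM (-0.71). Of the subunits, NFKB1 was at -0.38 (-0.54 to -0.21) and RELA at 0.17 (0.03 to 0.31). IL18, a cytokine matured by caspase-1, was among the 15 lowest genes at 29.4 and 7.98 CPM (-1.78, -2.0 to -1.57). In cells called G1 the list medians were -0.65 for NF-kB and -0.73 for chemokines and cytokines.

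Matches to the NF-kB motif are shown for 6 of the members that hold one, with capitals for GGG, any 3 bases and TTCC on either strand (in CXCL5 and CXCL1, matches on both strands overlap).
BIRC3, chr11:102317277-102317302, plus strand: tgggtcatGGAAATCCCCgagtgggt
NFKBIA, chr14:35404813-35404838, minus strand: actggcttGGAAATTCCCcgagcctg
TNFAIP3, chr6:137867184-137867221, plus strand: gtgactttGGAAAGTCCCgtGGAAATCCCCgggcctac
CCL20, chr2:227813755-227813780, plus strand: atcaatggGGAAAACCCCatgtggca
CXCL5, chr4:73998750-73998776, minus strand: tgagttcaGGGAATTTCCCcagcatcc
CXCL1, chr4:73869306-73869332, plus strand: ggaactccGGGAATTTCCCtggcccgg

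The motif was present in 4 of 9 NF-kB members (44.4%) and 7 of 10 chemokine and cytokine members (70%), against 6.47% of all promoters. CXCL5 and CXCL1 show the same capitals and were at -1.22 and -0.21. Over the 291 measured genes with the motif the median was -0.04, and 6 (2.06%) were at least 2-fold lower, against 1.05% of the 3433 without it. BIRC3, CCL20 and CXCL5, named above, are among these 6, so this share is no separate measure.

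Acute phase genes held some of the largest differences in the data. SAA1 and SAA2 encode serum amyloid A, an apolipoprotein made on IL-1, IL-6 and NF-kB signals. SAA1 was at 447 CPM in shScr and 84.1 CPM in shAPC (-2.32, -2.38 to -2.25) and SAA2 at 73.6 and 15.9 CPM (-2.12, -2.26 to -1.97); they are near-identical neighbours at chr11:18266260-18269977 and chr11:18239223-18248668 and reads may be split between them. SAA1 was seen in 67.9% of thinned shScr cells and 18.99% of thinned shAPC cells (77.6% and 24.6% unthinned), and in shAPC the richest 10% of cells held 88.5% of its UMIs, against 65.0% in shScr. The unthinned shScr share was the higher one, although 1402 of the 2600 shScr cells held under 2000 UMIs. With cells thinned to 1000 UMIs the shares were 31.2% in shScr and 5.1% in shAPC. Shallow shScr cells thus held SAA1 more often than their depth alone would give, and why was not tested. SAA1 was at -3.01 with all deposited barcodes and at -3.25 as a mean over cells. PTX3, a soluble pattern recognition protein, was at 355 and 140 CPM (-1.24, -1.30 to -1.19), and complement C3 at 24.7 and 14.4 CPM (-0.68). The membrane regulators of complement were lower to a lesser degree, with CD59 at -0.62 and CD55 and CD46 at -0.18 and -0.14. All 8 measured members, of 20 listed, were below the median of all genes, and 3 were at least 2-fold lower (against 1.27% of all genes). SAA2, C3 and CD55 reached 20 CPM only in shScr.

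**Figure D3:**
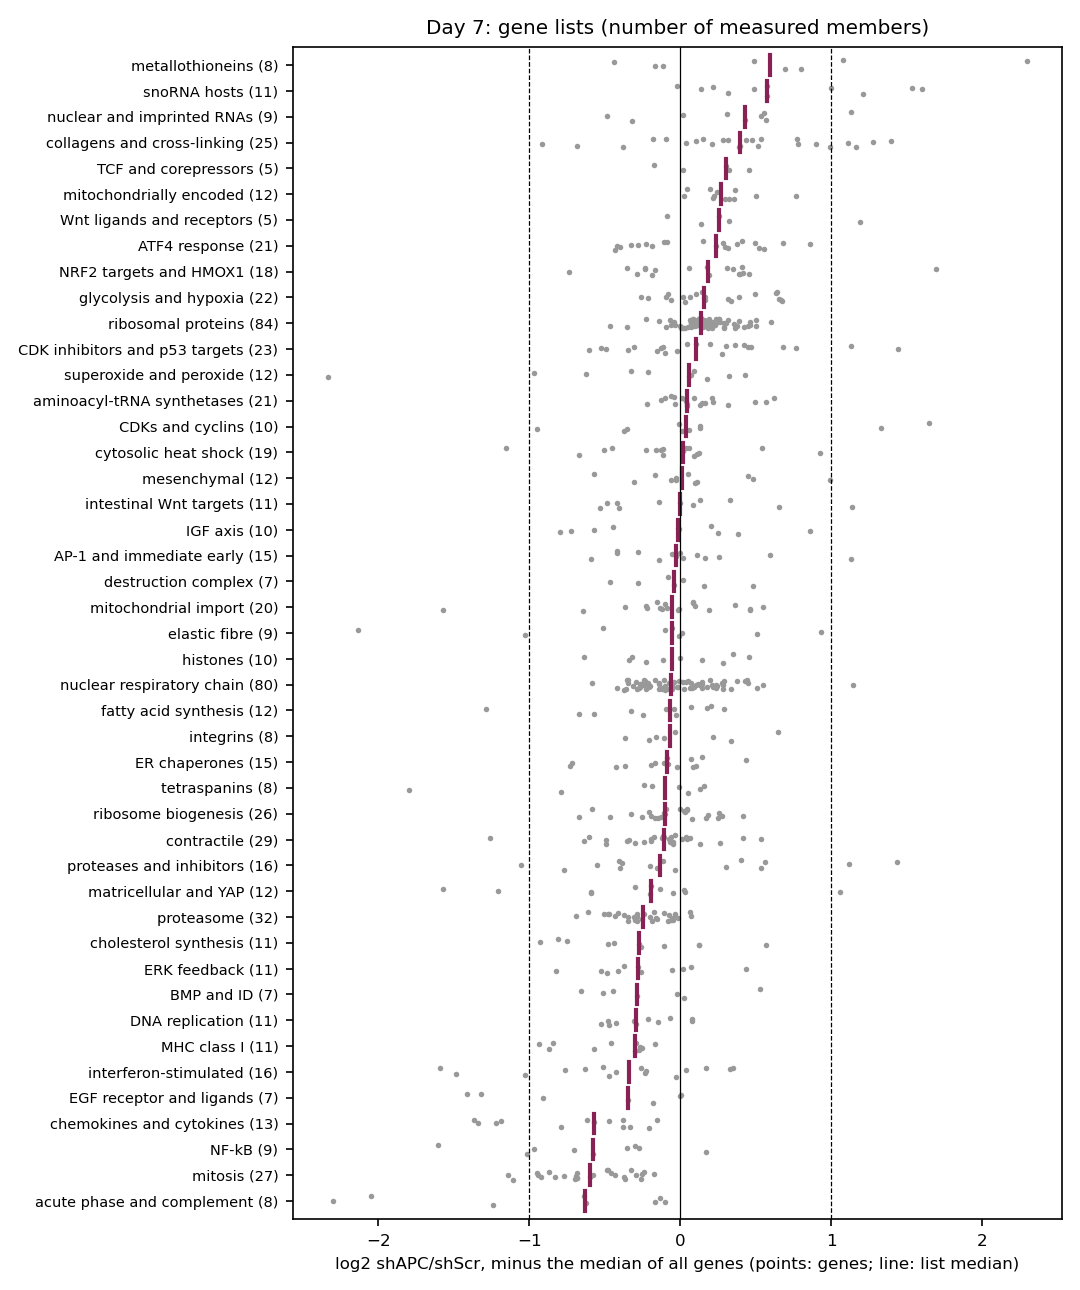
Relative log2 shAPC/shScr ratios (x axis, pseudocount 1 CPM) of the measured members of each gene list of at least 5 measured members (points), with the list median (line); the number of measured members is in brackets and 0 is the median of all genes. Acute phase, mitosis, NF-kB and chemokine lists lie furthest below 0, and metallothioneins, snoRNA hosts, nuclear RNAs and collagens furthest above it.

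Mitotic genes were lower in shAPC. The list holds kinases, motors and regulators that accumulate in G2 and M. Of 47 listed 27 were measured, and all 27 were below the median of all genes, with a list median of -0.60. At least 2-fold lower were 2 (against 1.27% of all genes). With TMM 5 were (against 85 of all 4573 genes), and with DESeq2 scaling 6 (against 90). Several members, among them CDC20, AURKA and CCNB1, reached 20 CPM only in shScr, so these counts partly reflect the limit on level. CDC20, the activator of the anaphase-promoting complex, was at 36.7 and 14.97 CPM (-1.20, -1.36 to -1.03), the spindle kinase AURKA at 31.0 and 12.9 CPM (-1.17, -1.35 to -0.997) and cyclin B1 (CCNB1) at 36.7 and 17.2 CPM (-0.99, -1.15 to -0.84). The α-tubulin TUBA1B was by far the most abundant, at 1298 and 633 CPM (-0.94), and CKS2, a CDK adaptor, was at 168 and 82.5 CPM (-0.93). Topoisomerase TOP2A was the nearest to the median, at 60.5 and 50.02 CPM (-0.18).

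Fewer cells were called G2M in shAPC. With cells thinned to 2000 UMIs and scored with Seurat's S and G2M lists, G2M was called in 20.6% of shScr cells (247 of 1198, interval 18.4 to 23.02) and in 12.6% of shAPC cells (137 of 1087, interval 10.7 to 14.7), with 20.8% and 13.9% unthinned. S phase was called in 6.76% (5.41 to 8.33) and 6.99% (5.55 to 8.67), with 8.62% and 6.56% unthinned and 12.7% and 10.6% at 1000 UMIs, so the direction depended on depth. The calls use some of the same genes as the mitosis list, so they are not a separate measure. Restricted to cells called G1, the 11 members still measured had a median of -0.28; CCNB1 was then at 0.03, whereas AURKA and TUBA1B were at -1.01 and -0.94. DNA replication genes were lower by less, with 9 of 11 below the median of all genes and a list median of -0.30. Past 2-fold were 0 of 11 (against 1.01% of all genes higher and 1.27% lower). The 7 still measured in G1 cells had a median of 0.01.

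Promoters of mitotic genes carry CCAAT boxes, bound by NF-Y, and a cell cycle homology region (TTTGAA) through which the DREAM complex represses them outside G2 and M. The windows of 3 members are shown, with matches to CCAAT and TTTGAA on either strand in capitals, which do not overlap here.
CDC20, chr1:43358873-43358938, plus strand: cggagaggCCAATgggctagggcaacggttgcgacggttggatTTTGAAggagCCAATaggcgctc
CCNB1, chr5:69167055-69167107, plus strand: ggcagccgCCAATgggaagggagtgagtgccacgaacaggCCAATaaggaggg
CKS2, chr9:89311117-89311179, plus strand: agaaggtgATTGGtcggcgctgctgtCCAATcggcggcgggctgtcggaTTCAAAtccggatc

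CCAAT was found in 17 of 20 mitosis members with a promoter (85%, against 35.7% of all promoters) and TTTGAA in 13 of 20 (65%, against 15.4%). Among all measured genes the 334 with TTTGAA had a median of -0.05 and the 1387 with CCAAT a median of -0.01.

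The G1 machinery did not follow the mitotic genes. CDK6, which with D cyclins phosphorylates RB, was among the 4 highest genes, at 25.6 CPM in shScr and 77.0 CPM in shAPC (1.68, 1.57 to 1.80), and its partner CCND2 was at 18.7 and 45.4 CPM (1.37, 1.23 to 1.52). CDK6 had a UMI in 22.9% and 49.6% of thinned cells (19% and 55.4% unthinned). CDK4, which the line overexpresses, was at 0.13 and RB1 at 0.01. Both CDK6 and CCND2 were thus higher in the library with fewer G2M calls, and in G1 cells they were at 1.62 and 1.29.

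CDK inhibitors and p53 targets were divided. Of 23 measured, 13 lay above and 10 below the median of all genes (list median 0.10). Under DESeq2 scaling 11 lay above 0 and 12 below, with a median of -0.04. With that scaling 1 was at least 2-fold higher (against 28 of all 4573 genes). With median scaling 2 were at least 2-fold higher (against 1.01% of all genes). These were TP53INP1, a stress-induced p53 cofactor, at 11.3 and 30.3 CPM (1.52, 1.34 to 1.70), and the antiproliferative BTG2 at 10.6 and 22.7 CPM (1.20, 1.00 to 1.39). Both reached 20 CPM only in shAPC. CDKN1A (p21) was at 539 and 650 CPM (0.36, 0.33 to 0.39), FDXR at 0.79 and MDM2 at 0.28. CDKN2A (p16 and ARF) went the other way, at 416 and 270 CPM (-0.52, -0.57 to -0.48), with GADD45A and GADD45B at -0.50 and -0.61.

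The collagen matrix was higher in shAPC. Of 25 measured collagens and collagen-modifying enzymes 20 lay above the median of all genes (18 above 0 under DESeq2 scaling), with a list median of 0.39. At least 2-fold higher were 4 (against 1.01% of all genes), of which COL7A1 reached 20 CPM only in shAPC. COL3A1 was at 34.9 and 87.6 CPM (1.42, 1.32 to 1.53), COL1A2 at 492 and 1118 CPM (1.28, 1.25 to 1.31) and COL1A1, with which COL1A2 forms type I collagen, at 927 and 1485 CPM (0.77, 0.75 to 0.80). COL7A1, the anchoring fibril collagen, and COL5A1, which nucleates fibrils, were at 1.21 and 1.13. The type VI chains COL6A1, COL6A2 and COL6A3 were at 0.78, 0.91 and 0.53, and the lysyl hydroxylase PLOD1 was at 38.2 and 71.9 CPM (1.01). Most of the fibril-forming chains and their modifying enzymes thus lay on one side.

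Exceptions were COL8A1, at 247 and 122 CPM (-0.92, -0.98 to -0.87), COL12A1 (-0.73) and the cross-linking oxidase LOX (-0.38). COL1A2 was already in most cells, with a UMI in 90.2% of shScr and 95.2% of shAPC cells thinned to 10000 UMIs (60.2% and 83.1% unthinned), whereas COL3A1 was in 25.4% and 43.4% (20.6% and 45.3% unthinned).

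Elastic fibre and matricellular genes were mixed, with single genes far below. EFEMP1, a fibulin of the extracellular matrix, was at 35.2 and 6.71 CPM (-2.30, -2.53 to -2.07) and seen in 25.6% and 5.07% of thinned cells (22.5% and 9.74% unthinned). Fibrillin 2 (FBN2) was at 352 and 161 CPM (-1.03), while FBN1 was at 0.01 and LTBP4, which tethers latent TGF-β, at 0.98. ABI3BP, a matrix-binding protein, was at 36.4 and 11.5 CPM (-1.57, -1.75 to -1.39).

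Among matricellular proteins and YAP targets ANKRD1, a cardiac ankyrin repeat protein induced by YAP, was at 133 and 41.2 CPM (-1.59, -1.69 to -1.50) and thrombospondin 1 (THBS1) at 68.0 and 27.0 CPM (-1.24). The other YAP targets differed less, with CYR61 at -0.59, CTGF at -0.30 and AMOTL2 at -0.05. TGFBI, a TGF-β-induced adhesion protein, was higher, at 216 and 423 CPM (1.06, 1.02 to 1.11).

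Proteases split as well: the gelatinase MMP2 was at 22.1 and 46.0 CPM (1.15) and stromelysin MMP3 at 13.2 and 34.9 CPM (1.5, 1.33 to 1.67), but the cysteine protease CTSK was at 37.4 and 16.3 CPM (-1.10). MMP3 rests on few cells, as the richest 10% held 91.7% of its shAPC UMIs, and its ratio ran from 0.42 as a mean over cells to 2.08 in cells of 10000 to 40000 UMIs. Contractile genes differed little as a list (median -0.11, 29 measured), with profilin PFN1 at -0.61 and CALD1 at 0.53. Past 2-fold was 1 of 29 (against 1.01% of all genes higher and 1.27% lower). This was transglutaminase TGM2, at 51.2 and 19.4 CPM (-1.31), which reached 20 CPM only in shScr.

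Metallothioneins, small cysteine-rich proteins that bind zinc and copper, took up several percent of all UMIs and their composition differed. MT1F ranked first among the higher genes, at 13.7 and 66.8 CPM (2.38, 2.23 to 2.53), and was seen in 10.7% of shScr and 34.5% of shAPC thinned cells (9.65% and 37.8% unthinned). MT1G was at 19.5 and 39.5 CPM (1.11) and MT1X at 621 and 1012 CPM (0.80). The bulk of the family was MT2A, at 37470 and 32390 CPM (-0.11), and MT1E, at 6797 and 5670 CPM (-0.17). The list median was 0.59, with 5 members above and 3 below the median of all genes. At least 2-fold higher were 2, MT1F and MT1G (against 1.01% of all genes), or 1 with DESeq2 scaling (against 28 of all 4573 genes). Both reached 20 CPM only in shAPC, yet the summed level of the family was 45000 and 39280 CPM. Minor isoforms were thus higher while the family total was not. The copies are close in sequence and reads may be split among them.

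Haem oxygenase (HMOX1), which degrades haem to biliverdin, carbon monoxide and iron, was the third highest gene, at 13.7 and 43.5 CPM (1.76, 1.60 to 1.92), in 8.81% and 23.1% of thinned cells (8% and 29.5% unthinned). Both ferritin chains, which store iron, were higher by less from a very high level, with FTH1 at 27010 and 32250 CPM (0.35) and FTL at 20100 and 25800 CPM (0.46). NRF2 targets as a list were divided, with 11 above and 7 below the median of all genes and a list median of 0.18 (0.04 under DESeq2 scaling). NQO1 was at 180 and 101 CPM (-0.74, -0.81 to -0.68) and thioredoxin (TXN) at -0.36.

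All 3 superoxide dismutases were lower. The secreted enzyme SOD3 was the lowest gene of the comparison, at 28.8 and 4.53 CPM (-2.57, -2.85 to -2.30), seen in 16.1% and 2.70% of thinned cells (15.8% and 5.95% unthinned). The mitochondrial SOD2 and cytosolic SOD1 were at -0.98 and -0.63. Peroxiredoxins, catalase and the glutathione peroxidase GPX4 were between -0.33 and 0.33.

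Noncoding hosts of small nucleolar RNAs were higher. Their introns carry snoRNAs that guide rRNA modification, and most of their spliced RNA is degraded when translated. Of 11 measured 10 lay above the median of all genes (9 above 0 under DESeq2 scaling), with a list median of 0.57. At least 2-fold higher were 3 (against 1.01% of all genes). SNHG9 was at 37.1 and 107 CPM (1.62, 1.53 to 1.72), SNHG19 at 68.5 and 188 CPM (1.55, 1.48 to 1.62) and SNHG25 at 115 and 249.9 CPM (1.22, 1.16 to 1.27). ZFAS1, the most abundant, was at 777 and 1085 CPM (0.58). SNHG19 had a UMI in 46.2% of shScr and 74.1% of shAPC thinned cells (30.4% and 65.0% unthinned), so the difference was spread over many cells.

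In a list of nuclear, imprinted and other long RNAs 7 of 9 were above the median of all genes (6 above 0 with TMM or DESeq2 scaling). Among the 7 were NORAD, which is mainly cytoplasmic, and CYTOR at 0.02. MALAT1, a nuclear speckle RNA, was at 11050 and 13930 CPM (0.43), NEAT1, the scaffold of paraspeckles, at 2213 and 3072 CPM (0.57), and KCNQ1OT1, the antisense RNA of an imprinted domain, at 27.5 and 57.4 CPM (1.16, 1.04 to 1.28). MALAT1 ran from -0.07 to 0.48 over the alternative settings. FENDRR, a noncoding RNA beside FOXF1, was at 9.25 and 28.8 CPM (1.73, 1.54 to 1.93) and HOXB-AS3, within the HOXB cluster, at 8.29 and 23.7 CPM (1.61, 1.4 to 1.82). The median share of mitochondrial UMIs in kept cells was 2.75% in shScr and 3.75% in shAPC, and its part in these differences was not tested.

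Large housekeeping complexes differed by small amounts. All 12 measured mitochondrially encoded genes lay above the median of all genes (10 above 0 under DESeq2 scaling), with MT-ND3 highest at 0.76. Their list median was 0.27, but the limit on mitochondrial UMIs acts on the same genes. Their nuclear partners in the respiratory chain did not follow, with 33 above and 47 below and a median of -0.06; COX7C was the exception, at 480 and 997 CPM (1.15, 1.12 to 1.18), present in 96.4% and 100% of thinned cells (55.0% and 86.9% unthinned). Of 84 ribosomal protein genes 74 lay above the median of all genes, led by RPS27 and RPS29 at 0.60 and 0.50. The list median was 0.14, or -0.001 under DESeq2 scaling, where the median of all genes was -0.14. Proteasome subunits lay below the median of all genes in 30 of 32 cases (list median -0.25), led by PSMB6 at -0.70. Under DESeq2 scaling 32 of 32 lay below 0. None of the ribosomal or proteasome genes passed 2-fold (against 1.01% of all genes higher and 1.27% lower).

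Several of the largest differences were in single housekeeping genes. TOMM22, the central receptor of the outer membrane import pore, was at 124 and 38.4 CPM (-1.60, -1.69 to -1.50) while the other 19 measured import genes lay between -0.65 and 0.57. It was in 68.2% and 26.4% of thinned cells (42.6% and 37.1% unthinned). SNRPD1, a core Sm protein of the spliceosome, was at 164 and 50.9 CPM (-1.59), the mitochondrial ribosomal protein MRPL32 at 51.0 and 15.5 CPM (-1.63) and CAP1, which recycles actin, at 273 and 104 CPM (-1.30). MAP2K1 (MEK1), the kinase of ERK, was at 36.1 and 11.1 CPM (-1.61, -1.80 to -1.43). PLCE1-AS1, an antisense RNA, was at 20.6 and 5.69 CPM (-1.76). Higher genes outside the lists were the zinc finger gene ZNF503 at 22.3 and 59.2 CPM (1.5), the Rab-like GTPase RABL6 at 28.6 and 71.4 CPM (1.41) and ST3GAL5, the GM3 synthase, at 10.1 and 25.2 CPM (1.42). TOMM22, SNRPD1, MRPL32, CAP1 and MAP2K1 were each lower by more than 2-fold in G1 cells too, from -1.38 for CAP1 to -1.72 for MAP2K1.

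Of 7 measured EGF and FGF receptors, ligands and regulators 2 were at least 2-fold lower (against 1.27% of all genes). Both, AREG and FGF5, reached 20 CPM only in shScr. AREG, a ligand of the EGF receptor, was at 28.7 and 10.1 CPM (-1.41, -1.60 to -1.21) and FGF5 at 55.3 and 18.8 CPM (-1.46, -1.61 to -1.32), while FGF7 was at -0.37, FGF2 at -0.18 and EGFR itself at -0.001. The richest 10% of shScr cells held 91.8% of AREG UMIs. ERRFI1, the feedback inhibitor of EGFR, was at 106 and 52.1 CPM (-0.93), and the feedback phosphatase DUSP5 at -0.85. Past 2-fold were 0 of 11 ERK feedback genes (against 1.01% of all genes higher and 1.27% lower). Their list median was -0.28, with DUSP6 at 0.45. CD9, a tetraspanin that binds EGF ligand precursors, was at 51.8 and 13.2 CPM (-1.88, -2.04 to -1.71), and CD63 at -0.79.

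In the fatty acid synthesis list 1 of 12 measured genes was at least 2-fold lower (against 1.27% of all genes), and it reached 20 CPM only in shScr. SCD, the Δ9 desaturase, was at 37.98 and 13.9 CPM (-1.35, -1.52 to -1.19), whereas FASN was at -0.26 and ACLY at 0.07. G0S2, an inhibitor of triglyceride lipase, was at 83.4 and 25.1 CPM (-1.64), with 95.6% of its shScr UMIs in the richest 10% of cells. The arginine transporter SLC7A2 was at 73.4 and 19.2 CPM (-1.84, -1.97 to -1.70). In cholesterol synthesis 8 of 11 measured genes were below the median of all genes (list median -0.28), led by ACAT2 at -0.99 and MSMO1 at -0.85, and INSIG1 was above it at 0.59. Glycolysis and hypoxia genes were above the median of all genes in 17 of 22 cases (13 above 0 under DESeq2 scaling). Their list median was 0.16, led by HILPDA at 0.71. The ATF4 response was divided, from NUPR1 at -0.43 to ALDH1L2 at 0.89.

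Hair keratin genes appeared among the highest. KRTAP1-5, a keratin-associated protein of the hair shaft, was at 11.7 and 57.0 CPM (2.38, 2.21 to 2.55), and the hair keratin KRT34 at 10.2 and 28.6 CPM (1.58, 1.39 to 1.77). Both lie on chromosome 17, KRTAP1-5 at chr17:41026026-41027208 and KRT34 at chr17:41377669-41382306, and KRTAP2-3 was at 25.9 and 32.8 CPM (0.44). Of 111 genes of this kind 90 had no UMI in either library, and the family is close in sequence. KRTAP1-5 was seen in 9.68% and 30.6% of thinned cells (8.27% and 35.4% unthinned).

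By position, chromosome 16 held more of the higher genes than its share. Of its 209 measured genes 9 (4.31%) were at least 2-fold higher, against 1.01% of all, and 0 were lower. They lie from SNHG9 at chr16:1964895-1965509 to FENDRR at chr16:86474529-86509099, with SNHG19, HCFC1R1, SEZ6L2, MMP2, MT1F, MT1G and CRISPLD2 between them. SEZ6L2, MT1F, MT1G and FENDRR reached 20 CPM only in shAPC. The median of the chromosome was 0.06 and chromosome medians ran from -0.09 on chromosome 4 to 0.08 on chromosome 19. Chromosome 4 held 6 of the lower genes among 150 (4.00%), with SOD3, CXCL5, AREG and FGF5 among them. SOD3, AREG and FGF5 reached 20 CPM only in shScr.

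The list totals per cell show how far the libraries overlapped. In cells thinned to 10000 UMIs the mitosis list took a median of 0.22% of a shScr cell's UMIs (10th to 90th percentile 0.06 to 0.862) and 0.09% of a shAPC cell's (0.03 to 0.48), and 25.9% of shAPC cells were above the shScr median. Separation was wider for the acute phase and complement list, with medians of 0.11% and 0.05% and 11.2% of shAPC cells above the shScr median. Interferon-stimulated genes had medians of 0.19% and 0.14% and MHC class I genes 0.13% and 0.09%, with 21.4% and 18.0% of shAPC cells above the respective shScr medians.

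Of the higher lists, snoRNA hosts differed in most cells: their median was 0.17% in shScr and 0.27% in shAPC, and 86.4% of shAPC cells exceeded the shScr median. Collagens had medians of 0.35% (0.17 to 0.67) and 0.49% (0.19 to 1.16), so the upper end differed more than the lower. Nuclear and imprinted RNAs had 1.23% and 1.75%, whereas metallothioneins were lower per cell, at 4.4% and 3.45%. Cells of 1 library share their culture, so these are descriptions of 2 cultures.

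**Figure D4:**
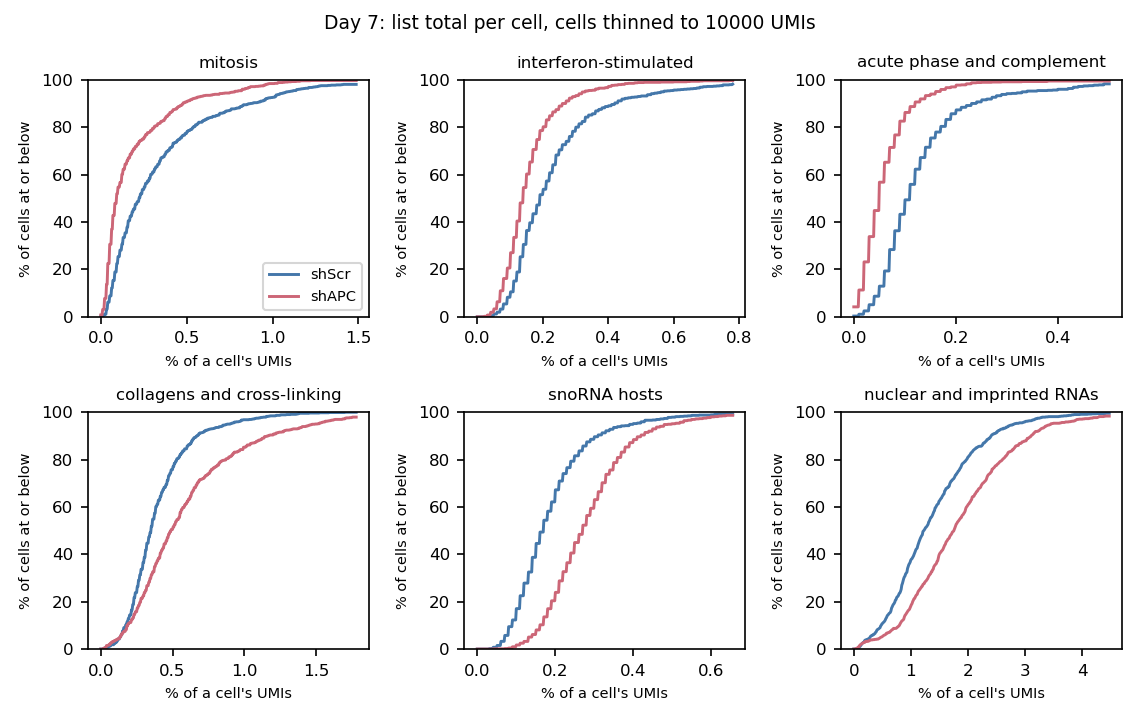
Cumulative distributions over cells (y axis, % of cells at or below) of the share of a cell's UMIs (x axis, %) from 6 gene lists, for shScr (blue, 919 cells) and shAPC (red, 927 cells) thinned to 10000 UMIs. The shAPC curve lies left of shScr for mitosis, interferon-stimulated and acute phase genes and right of it for collagens, snoRNA hosts and nuclear RNAs.

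**Figure D5:**
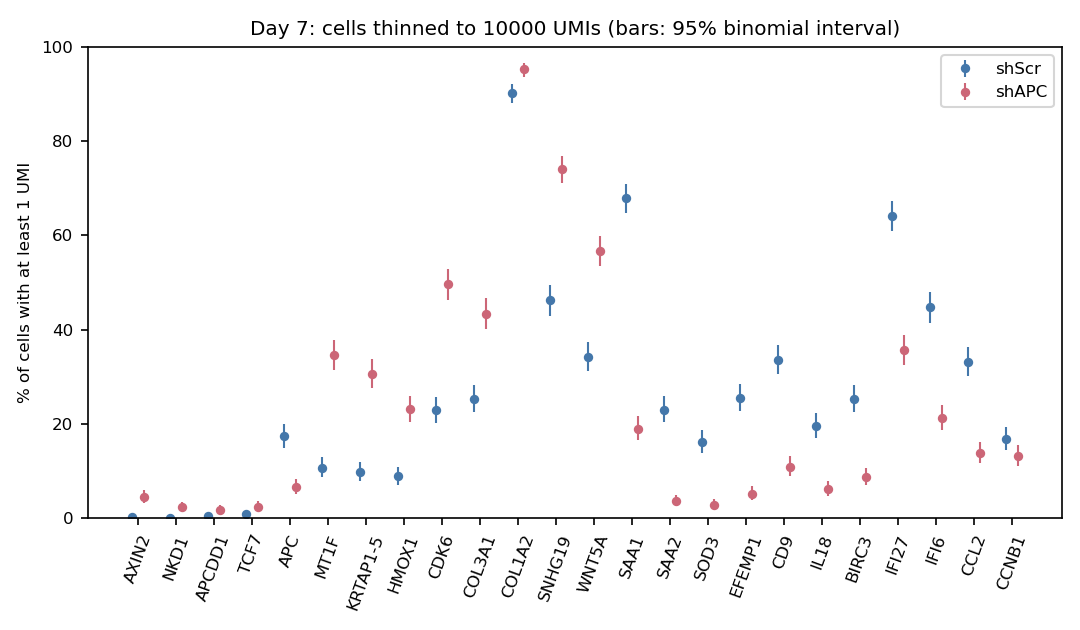
Share of cells (y axis, %) with at least 1 UMI of each gene after thinning to 10000 UMIs, for shScr (blue) and shAPC (red), with 95% binomial intervals. Differences range from AXIN2 (0.109% and 4.42%) to SAA1 (67.9% and 18.99%) and IFI27 (64.1% and 35.6%).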

How the data were processed

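The authors aligned the reads to GRCh38 with Cell Ranger (built on STAR) and deposited, for each library, raw UMI counts per gene and barcode over 33538 features. The annotation release and cell calling settings are not given in the sources used here. Members and gene lists were chosen with earlier results of these data known.

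UMIs were summed over the kept cells and divided by their total (CPM). Ratios of single genes are exact, without a pseudocount, with conditional Clopper-Pearson 95% intervals of counting error; calls, ranks and list medians used log2 of CPM plus 1, where shScr or shAPC reached 20 CPM. With 1 library a group no test was run. Shares of cells have Clopper-Pearson intervals, and CPM Poisson ones. Cells were thinned without replacement to 2000 UMIs as planned and to 10000 UMIs as an alternative chosen after seeing the data; shares in the text are those at 10000. Percentages for the richest 10% of cells come from the same cells. No doublet caller was run and no doublets were removed.

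Named genes are APC, the 15 highest and 15 lowest, and in each list up to 5 members of largest difference, and the 2 most abundant, with Wnt feedback genes of at least 4 UMIs; further list members, ABI3BP, CAP1, MAP2K1 and the genes listed for chromosomes 4 and 16 were named after their values were seen. Y-linked genes and XIST (3 measured) are not reported, nor are some single results among the list members. Coordinates come from GENCODE 44, matched by Ensembl ID (33113 of 33538), and promoters from RefSeq (GRCh38.p14). Seurat's cell cycle lists matched 43 S and 54 G2M genes.

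Alternatives were other minimum levels, pseudocounts, scalings, cell filters, thinning depths and G1 cells. The ratio script was tested on simulated data. Tools were R 4.3.3, edgeR 4.0.16, DESeq2 1.42.0, Seurat 5.3.0, Python 3.11.15, numpy 2.4.6, scipy 1.17.1, scanpy 1.11.5 and matplotlib 3.10.9.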

Additional observations from a re-analysis of the deposited data

How the results depend on the processing

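No paired analysis was possible because each group holds 1 library, and leaving out a replicate was not possible for the same reason. The cause of the differences below was not tested, except that a higher minimum level leaves fewer genes. The count of 46 genes at least 2-fold higher became 73, 26 and 11 at a minimum of 10, 50 and 100 CPM, 157 with no minimum, 28 with DESeq2 size factors, 95 in cells thinned to 2000 UMIs, 108 as a mean over cells and 76 without mitochondrial and ribosomal genes in the total. The count of 58 genes lower became 30 and 16 at 50 and 100 CPM, 142 with no minimum, 90 with DESeq2 size factors, 91 under 10% mitochondrial, 92 with all barcodes, 98 thinned and 117 as a mean over cells. APC (-1.44) was -0.97 with a pseudocount of 5 CPM, -1.69 under 10% mitochondrial, -1.71 with all barcodes, -1.86 thinned and -1.06 as a mean over cells. The metallothionein median (0.59) reversed to -0.067 at 100 CPM, where 3 members remained, and was 0.39 at 50 CPM, 0.40 with no minimum, 0.45 with DESeq2 and 0.41 in cells of 10000 to 40000 UMIs. The mitosis median (-0.60) was -0.74 with DESeq2, -0.76 under 10% mitochondrial and with all barcodes, -0.73 in cells of 10000 to 40000 UMIs and -0.28 in G1 cells. The chemokine median (-0.57) was -0.43 at 100 CPM, -0.68 with TMM, -0.71 with DESeq2, -0.69 under 10% mitochondrial and with all barcodes, -0.74 thinned, -0.80 as a mean over cells and -0.73 in G1 cells. The NF-kB median (-0.58) was -0.38 at 10 CPM and -0.82 thinned. The acute phase median (-0.63) was -1.59 and -1.19 at 50 and 100 CPM, -0.19 with no minimum and -0.77 with DESeq2. The snoRNA host median (0.57) was 0.83 at 100 CPM, 0.30 with no minimum, 0.46 with TMM, 0.43 with DESeq2, 0.48 with nothing subtracted, 0.46 under 10% mitochondrial and with all barcodes, 0.79 as a mean over cells and 0.44 in G1 cells. G2M shares were 28.2% and 19.1% at 1000 UMIs. No ratio of the genes in the plots of the 15 highest and 15 lowest changed sign in any alternative (0 of 450 values), but 165 of the 450 were classed as moved. These genes were chosen as the extremes of the same counts, so a kept sign is no check of them. Depth limits AXIN2, NKD1 and APCDD1, with 4, 7 and 3 UMIs in shScr.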

Other observations

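Some genes were counted in 1 library and hardly in the other; they were picked after their values were seen, below the level used for the other comparisons. Genes with at least 20 UMIs in shAPC and at most 3 in shScr numbered 25, and those with the opposite pattern 7. Besides the Wnt inhibitor APCDD1, the first group held IL16, a T cell attractant (2 and 59 UMIs, relative log2 5.11, 3.20 to 8.19), DENND2A, a Rab exchange factor (3 and 66 UMIs, 4.69, 3.08 to 7.00), CACNA1H, a T-type calcium channel (1 and 30 UMIs, 5.14, 2.55 to 10.5), and the lncRNA AC093001.1 (1 and 131 UMIs, 7.26, 4.76 to 12.6). NRG2, a ligand of ERBB receptors, had 0 and 31 UMIs and the dipeptidase CNDP1 0 and 35.

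The second group held KISS1, a metastasis suppressor peptide (45 and 2 UMIs, -4.26, -7.35 to -2.33), the fatty acid binding protein FABP4 (32 and 3 UMIs, -3.19, -5.54 to -1.51), the cytokine TNF (21 and 1 UMIs, -4.16, -9.53 to -1.53) and DMRTC2 (28 and 0 UMIs).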
